A study of Mus musculus with 12 samples.

Results

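The transcripts of the mitochondrial genome were measured in chronic proximal thoracic aortic aneurysms (cPTAA) of mice and in sham-operated aortas. The members were all genes whose symbol starts with mt-, which gave 35 of the 30130 genes listed. They comprised 13 protein-coding genes, 2 ribosomal RNA genes and 20 of the 22 annotated transfer RNA genes, and the 3 classes were kept apart. Of the 37 annotated mitochondrial genes, mt-Tf and mt-Td were not analysed here. The study sequenced RNA of 7 aneurysms, named here by their title numbers as cPTAA 2, 3, 4, 6, 7, 9 and 12, and of 5 sham aortas, named sham 1, 5, 8, 10 and 11. The cPTAA mice had received periaortic elastase, a protease that degrades elastic fibres, together with BAPN, which inhibits the lysyl oxidases that cross-link collagen and elastin. The sham mice had sham surgery and drank normal water. All mice were male and of the strain written C56BL/6J in the labels. The sources used here do not give their age, the days after surgery or any sequencing batch. Both groups were operated on. The enzyme and the inhibitor were given together as 1 condition, so their effects cannot be told apart. The smooth muscle myosin gene Myh11 was present in every library, between 14096 and 60173 normalised reads in cPTAA and between 61075 and 87197 in sham.

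The mitochondrial genome is a small circle, present in many copies per cell, that encodes core subunits of the respiratory chain and the RNAs needed to translate them. Both strands are transcribed as long precursors, and the transfer RNAs that lie between most of the coding genes are cut out to release the messenger and ribosomal RNAs. Most respiratory chain subunits are encoded in the nucleus and imported, so that each complex other than complex II is built from both genomes. Tissues rich in mitochondria, such as heart muscle and brown fat, hold high levels of these transcripts. The libraries were made by oligo-dT capture, which selects RNA with a poly(A) tail. Mature transfer RNAs lack such a tail, so their values here do not measure the mature transfer RNA pool.

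The share of all reads that came from mitochondrial genes was 6.33 ± 4.15% in cPTAA (SD, n = 7) and 13.98 ± 2.37% in sham (SD, n = 5). In sham it was 14.9%, 12.5%, 10.8%, 16.9% and 14.8%. In cPTAA it was lowest in library 12 at 3.23% (Wilson 95% interval 3.22 to 3.24%), 4.82% at the median and highest in library 9 at 15.2% (15.2 to 15.2%). All cPTAA libraries but number 9 lay below every sham library, and library 9 lay within the sham range. Protein-coding genes made up nearly all of it, with 6.13 ± 4.005% of reads in cPTAA and 13.5 ± 2.27% in sham. Ribosomal RNA genes held 0.183 ± 0.136% in cPTAA and 0.455 ± 0.139% in sham, and transfer RNA genes 0.0154 ± 0.0112% and 0.0354 ± 0.00852%. Depth ranged from 14078885 to 17493428 reads per library, and the intervals cover counting error only.

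**Figure D1:**
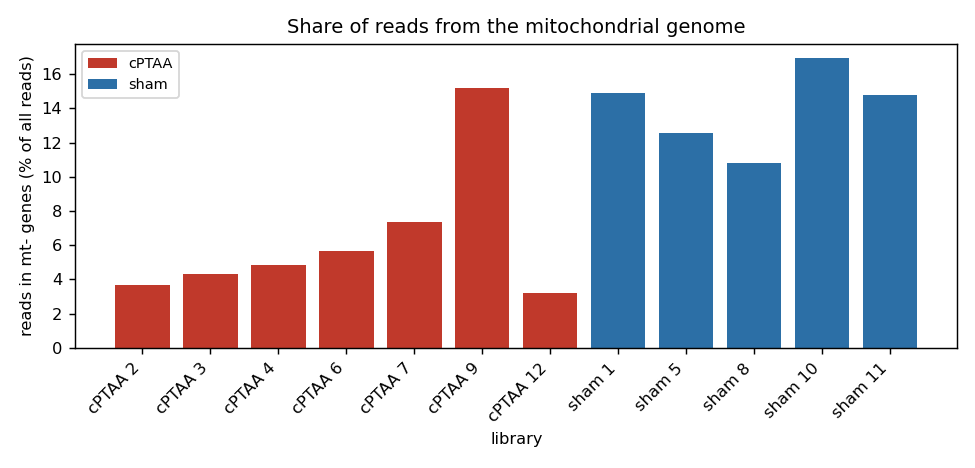
Percent of all reads of a library counted to mt- genes, 1 bar per library, cPTAA in red and sham in blue. The cPTAA libraries lie between 3.23% and 7.35% except library 9 at 15.2%, and the sham libraries between 10.8% and 16.9%.

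A segment of chromosome 1 holds 7 annotated pseudogenes that are copies of mitochondrial genes. Aligned to their mitochondrial counterparts in the GENCODE M21 annotation, whose build is GRCm38, they differed by 0 or 1 bases each. The copies covered nearly the whole of mt-Co2 (Gm28661), mt-Atp6 (Gm10925), mt-Co3 (Gm28437), mt-Nd3 (Gm28438) and mt-Nd4l (Gm10222), 63.6% of mt-Nd4 (Gm28439) and 31.3% of mt-Co1 (Gm29216). A read that lies inside such a copy and covers no differing base cannot be placed by its sequence. The sources used here do not say how reads with several matches were counted. The values of these genes are therefore uncertain in a way that those of mt-Nd1, mt-Nd2, mt-Nd5, mt-Nd6, mt-Cytb and the ribosomal RNA genes are not. mt-Atp8, mt-Ts1, mt-Tk, mt-Tg and mt-Tr lie between genes with a copy. They have no counterpart among the 7 pseudogenes. The copies follow the order of their mitochondrial genes, with bases between them where these genes would lie. For mt-Tk and mt-Atp8 this is the stretch between the end of Gm10925 (24614651) and the start of Gm28661 (24614885). Whether such stretches hold their sequence was not tested, so their values may be uncertain in the same way. The first 294 bases of mt-Nd4l, the gene with the largest fall below, are shown because Gm10222 (chr1:24612407-24612700, minus strand, GRCm38) has the same letters throughout.
mt-Nd4l: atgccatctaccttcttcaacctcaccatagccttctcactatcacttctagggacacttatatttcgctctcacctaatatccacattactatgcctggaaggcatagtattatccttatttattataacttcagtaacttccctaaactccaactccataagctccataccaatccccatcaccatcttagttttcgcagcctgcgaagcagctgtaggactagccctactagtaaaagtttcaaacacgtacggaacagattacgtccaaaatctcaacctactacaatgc
The first 60 bases of mt-Nd3 and of its copy (chr1:24612775-24613119, minus strand, GRCm38) show the only difference between them, T3C counted from the first base of mt-Nd3, with the base that differs in capitals.
mt-Nd3: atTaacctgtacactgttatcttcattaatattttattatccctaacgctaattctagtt
Gm28438: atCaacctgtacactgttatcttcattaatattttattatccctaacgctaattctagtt

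Of the 13 protein-coding genes, 10 fell in cPTAA and 0 rose (limma, Benjamini-Hochberg adjusted p under 0.05). Across all 21415 genes tested, 11.1% were lower and 12.9% were higher by the same test. Of the genes called, 53.7% were higher, and 64.7% with libraries scaled to their total reads, where the same number of protein-coding genes (10) fell. With TMM scaling 9 of the 13 fell. All 13 had a log2 fold change below 0, with a median of -1.65 against -0.05 over all genes tested. Fold changes here are on the scale of log2(normalised value + 1). mt-Nd1, mt-Co1 and mt-Nd3 did not pass, but did with voom and sample weights. In each of the 13 genes at least 6 of the 7 cPTAA libraries lay below all sham libraries. In 11 of them the library that did not was cPTAA 9, and in mt-Nd4l and mt-Atp8 all 7 lay below. Over the 34 mitochondrial genes tested, 3 showed no overlap between the groups, where 4.95% of all genes had every cPTAA library below every sham library and 8.02% every one above. Without cPTAA 9, 13 of 13 protein-coding genes passed, where 13.3% of all genes were lower and 14.9% higher. Without cPTAA 2, cPTAA 3, sham 1, sham 10 or sham 11, 6 did, and mt-Co2, mt-Atp8, mt-Atp6, mt-Co3, mt-Nd4l and mt-Nd5 passed in each of these and the other leave-outs.

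**Figure D2:**
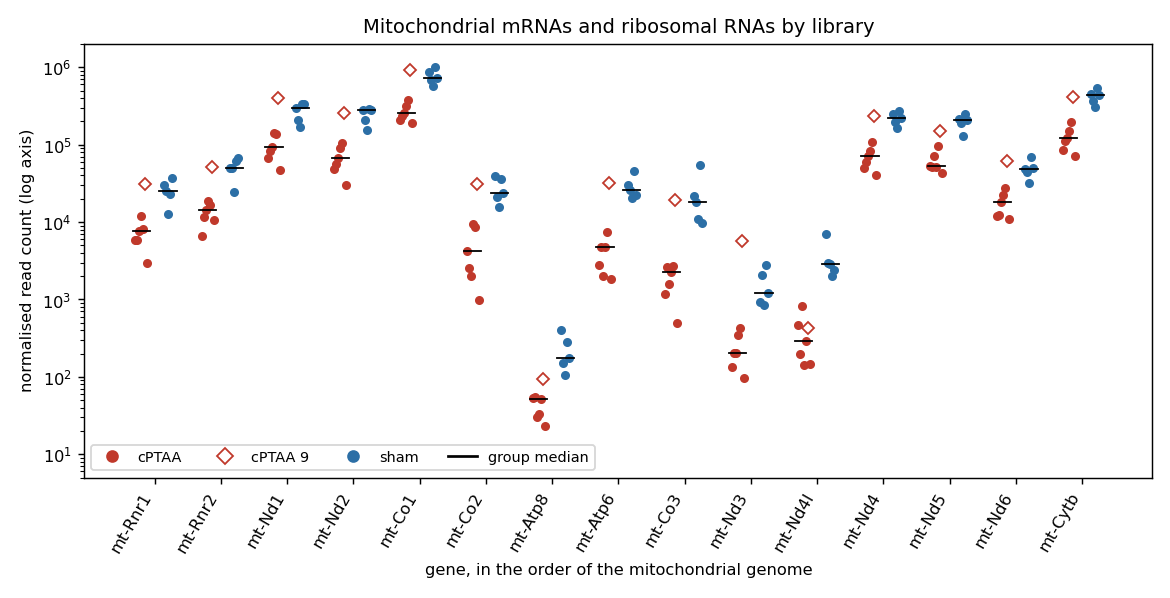
Normalised read count on a log axis of the 13 protein-coding and 2 ribosomal RNA genes, 1 point per library with black lines at the group medians. The open diamonds are cPTAA 9, which lies within or above the sham range for all of them but mt-Atp8 and mt-Nd4l.

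Complex I, the NADH dehydrogenase that passes electrons from NADH to ubiquinone, has 7 subunits encoded in the mitochondrial genome, and 5 of the 7 fell. mt-Nd4l, a small membrane subunit, fell the most. It had between 142 and 822 normalised reads in cPTAA with a median of 292, and 6949, 2977, 2865, 2039 and 2380.1 in sham. No cPTAA library reached the lowest sham library, and cPTAA 9 with 423 was not apart from the others. Its log2 fold change was -3.39 ± 0.42 (SE, adjusted p = 5.3e-05). mt-Nd5, one of the large proton-pumping subunits, ranged from 43058 to 152149 in cPTAA with a median of 52718. In sham it had 213309, 192339, 131175, 249486 and 206273, and only cPTAA 9 lay within the sham range. It fell by 1.53 ± 0.39 on the log2 scale (adjusted p = 0.0106).

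mt-Nd4, also a proton-pumping subunit, ranged from 41106 to 234242 in cPTAA with a median of 70801, against 248143, 194266, 163895, 275327 and 220271 in sham. cPTAA 9 held the highest cPTAA value and was the only one inside the sham range. It fell by 1.47 ± 0.45 (adjusted p = 0.0271), but did not pass without cPTAA 2, cPTAA 3, cPTAA 4, sham 1, sham 10 or sham 11 (up to 0.0640). mt-Nd2, the third such subunit, ranged from 29754 to 255655 with a median of 68201 in cPTAA, and had 279888, 210481, 153529, 292396 and 276693 in sham. It fell by 1.65 ± 0.50 (adjusted p = 0.0257), but did not pass without cPTAA 2, cPTAA 3, sham 1, sham 10 or sham 11 (up to 0.0600). Again cPTAA 9 was the only library to overlap.

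mt-Nd6 is the only one of the 13 that is encoded on the other strand, as part of the light-strand transcript. It ranged from 10811 to 61536 in cPTAA with a median of 18401, against 48986, 44039, 31512, 69392 and 50448 in sham, with cPTAA 9 inside the sham range. It fell by 1.27 ± 0.39 (adjusted p = 0.0290), and did not pass with edgeR (adjusted p = 0.0827) or without cPTAA 2, cPTAA 3 or any sham library but sham 8 (up to 0.0807). The sources used here do not say whether counting used the strand, so mt-Nd6 reads and antisense reads of the heavy-strand precursor cannot be told apart. Whether mt-Nd6 RNA carries a poly(A) tail was not tested, so after oligo-dT capture its value need not measure the whole of its messenger RNA.

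The other 2 subunits of complex I did not pass. mt-Nd1, which lies where ubiquinone binds, ranged from 47475 to 396672 in cPTAA with a median of 93164, and had 298023, 210774, 169919, 336438 and 332215 in sham. Its value in cPTAA 9 was above every sham library, while the other cPTAA libraries were below them all. Its log2 fold change was -1.24 ± 0.53 (adjusted p = 0.104, and 0.00668 without cPTAA 9). mt-Nd3 ranged from 96.9 to 5681 with a median of 203 in cPTAA, against 919, 2086, 854, 2799.6 and 1203 in sham. Here too the highest value of all 12 libraries was that of cPTAA 9, and the other 6 lay below the sham libraries. Its log2 fold change was -2.08 ± 0.77 (adjusted p = 0.0640, and 0.000135 without cPTAA 9), but -0.60 with edgeR (adjusted p = 0.687).

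Complex III, which passes electrons from ubiquinol to cytochrome c, has a single mitochondrially encoded subunit, the cytochrome b gene mt-Cytb. It ranged from 71700.0 to 417061 in cPTAA with a median of 122393, and had 453901, 361993, 310721, 543769 and 440328 in sham. cPTAA 9 alone lay within the sham range. It fell by 1.57 ± 0.53 (adjusted p = 0.0420), and of the 12 leave-outs it passed in those of cPTAA 9 and sham 8, with adjusted p up to 0.0939 in the other 10. It also did not pass with TMM scaling (0.0565) or without the filter on low values (0.0754).

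Complex IV, cytochrome c oxidase, reduces oxygen to water. Its catalytic subunit gene mt-Co1 had the most normalised reads per length of the mitochondrial genes. It ranged from 192474 to 914728 in cPTAA with a median of 255159, against 875659, 679539, 577584, 1007177 and 724636 in sham. cPTAA 9 was above 4 of the 5 sham libraries and the other cPTAA libraries were below all of them. The log2 fold change was -1.30 ± 0.65 and did not pass (adjusted p = 0.163, 0.0189 without cPTAA 9 and 0.0572 with edgeR). DESeq2 placed mt-Co1 past the threshold with a log2 fold change of -1.12 (adjusted p = 0.00945).

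The other catalytic subunit gene of complex IV, mt-Co2, ranged from 989 to 30607 in cPTAA with a median of 4260.2, and had 39241, 21091, 15587, 36355 and 23407 in sham. It fell by 2.43 ± 0.66 (adjusted p = 0.0141), and did not pass on the recovered reads, where it was -1.67 with edgeR (adjusted p = 0.0859) and -1.70 with DESeq2 (adjusted p = 0.0600). mt-Co3, a structural subunit, ranged from 502 to 19515 in cPTAA with a median of 2245. In sham it had 21670.3, 17999, 10843, 54122 and 9643, a spread wider than that of most mitochondrial genes. It fell by 3.05 ± 0.69 (adjusted p = 0.00462). In both genes cPTAA 9 was the one library inside the sham range.

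Complex V is the ATP synthase, and both of its mitochondrially encoded subunits sit in the membrane part. mt-Atp8 ranged from 23.1 to 94.1 in cPTAA with a median of 52.1, against 399.6, 150.0, 106, 284 and 176 in sham. The groups did not overlap, and cPTAA 9 was the highest of the cPTAA libraries. It fell by 2.15 ± 0.37 (adjusted p = 0.000694). mt-Atp6, the subunit that forms the proton path with the rotor ring, ranged from 1820.2 to 31834 with a median of 4757 in cPTAA, and had 30511, 26169, 20296, 45569 and 22114 in sham. It fell by 2.54 ± 0.56 (adjusted p = 0.00420), with cPTAA 9 inside the sham range. The 2 genes overlap by 43 bases, so some of their reads can belong to either.

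Both ribosomal RNA genes, whose products form the core of the mitochondrial ribosome, fell. After oligo-dT capture their values need not measure the whole ribosomal RNA pool. mt-Rnr1, the RNA of the small subunit, ranged from 3002 to 30802 in cPTAA with a median of 7572, against 30208, 25516, 12829.6, 23214 and 36643 in sham. It fell by 1.58 ± 0.45 (adjusted p = 0.0189), and did not pass without sham 11 (0.0558) or with edgeR (0.0666). mt-Rnr2, the RNA of the large subunit, ranged from 6658 to 51341 with a median of 14273, against 50561, 49324, 24272, 61218 and 67571. It fell by 1.65 ± 0.42 (adjusted p = 0.00984) and passed in every leave-out. In both, 6 of 7 cPTAA libraries lay below all sham libraries and cPTAA 9 did not.

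Of the 19 transfer RNA genes tested, 14 fell and 0 rose, with a median log2 fold change of -1.66. mt-Tv, mt-Tq, mt-Ta, mt-Tr and mt-Tt did not pass. mt-Ts1, among the 14, met the filter on low values mainly through sham, so its call carries little weight. Of the cPTAA libraries only cPTAA 3 (1.80) reached a value of 1. The same held for mt-Tv, with cPTAA 12 (5.54) alone. mt-Tk was not tested, being listed at 0 in every cPTAA library and at 1.02 and 1.09 in sham 8 and sham 10. Transfer RNA genes of the heavy-strand transcript fell in 8 of 11 cases and those of the light-strand transcript in 6 of 8, with medians of -1.66 and -1.72. The calls for mt-Tn, mt-Tc, mt-Ty, mt-Tl2 and mt-Te held with any 1 library left out. The number of calls was 17 without cPTAA 9, 9 without cPTAA 2, cPTAA 3, cPTAA 6 or sham 5, 8 without sham 1, 6 without sham 11 and 5 without sham 10. With edgeR, where 9.9% of all genes were lower, 9 transfer RNA, 8 protein-coding and 1 ribosomal RNA genes passed.

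mt-Tl2, a leucine transfer RNA, was the only one without overlap between the groups. It had between 8.87 and 55.0 normalised reads in cPTAA with a median of 26.8, and 285, 206, 135, 272 and 218 in sham. cPTAA 9 with 14.7 was among the lowest, unlike in most mitochondrial genes. It fell by 2.96 ± 0.42 (adjusted p = 0.000152). mt-Te, the glutamate transfer RNA, ranged from 57.8 to 617 in cPTAA and from 539 to 1094 in sham and fell by 2.35 ± 0.45 (adjusted p = 0.00140). mt-Tc, the cysteine transfer RNA, ranged from 138 to 664 and from 369 to 987 and fell by 1.61 ± 0.35 (adjusted p = 0.00338). cPTAA 9 was the highest cPTAA library in both.

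mt-Tn fell by 1.61 and mt-Ty by 2.18, both genes of the light-strand transcript for the asparagine and tyrosine transfer RNAs (adjusted p = 0.00760 and 0.00756). The calls lost in at least 1 leave-out were mt-Tl1 at -1.65, mt-Tw at -1.52, mt-Tg at -1.85, mt-Th at -1.66, mt-Ts2 at -1.72, mt-Ti at -2.37, mt-Tm at -2.59, mt-Ts1 at -1.82 and mt-Tp at -1.19. mt-Tl1 was lost without sham 10 (adjusted p = 0.0519) and mt-Tw without sham 10 or sham 11, and the other 7 did not pass in 3 to 9 leave-outs each. In 5 of its 9, mt-Ts1 fell below the filter on low values. mt-Tw, mt-Tg, mt-Ti and mt-Tm also did not pass with edgeR, nor mt-Ti and mt-Tm with DESeq2. Among these mt-Ts1 had at most 1.80 normalised reads in cPTAA and at most 9.77 in sham, so its value rests on a handful of reads. mt-Ti and mt-Tm were also low, with medians of 1.95 and 1.97 in cPTAA.

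Values of transfer RNA genes of about equal length differed widely in sham. mt-Tp, the proline transfer RNA gene of the light-strand transcript, had 39767 ± 10773 normalised reads per kb (SD, n = 5). Its neighbour mt-Tt, the threonine transfer RNA gene of the heavy-strand transcript, had 22.3 ± 13.9 per kb. Both are 67 bases long, and their sequences are shown as the pair of neighbouring transfer RNA genes furthest apart in value. As for mt-Nd6, the sources used here do not say whether counting used the strand. These values need not be levels of the transfer RNAs.
mt-Tp: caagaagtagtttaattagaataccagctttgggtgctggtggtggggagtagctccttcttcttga
mt-Tt: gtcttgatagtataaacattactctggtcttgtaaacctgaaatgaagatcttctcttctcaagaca
mt-Tp lies at chrM:15356-15422 on the minus strand and mt-Tt at chrM:15289-15355 on the plus strand (GRCm38). mt-Tt, at 0 to 3.69 normalised reads in cPTAA and 0 to 2.17 in sham, had a log2 fold change of -0.19 ± 0.51 (adjusted p = 0.822). mt-Tp fell by 1.19 ± 0.39 (adjusted p = 0.0386), and did not pass without cPTAA 2, 3, 4 or 12 or without any of sham 1, 5, 10 and 11 (up to 0.0988), nor with edgeR or DESeq2 (0.149 and 0.0891).

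The fold changes varied along the genome. The 6 protein-coding genes that lie between mt-Co1 and mt-Nd4 (mt-Co2, mt-Atp8, mt-Atp6, mt-Co3, mt-Nd3 and mt-Nd4l) had log2 fold changes from -3.39 to -2.08 with a median of -2.48. The other 7 lay between -1.65 and -1.24 with a median of -1.47. This division was chosen after the values and the nuclear copies were seen and was not tested. The same 6 had the lowest values per length of the 13 in sham. These are reads counted per kb and need not be transcript levels. All of the 6 but mt-Atp8 have an annotated copy on chromosome 1, and whether the segment also holds mt-Atp8 sequence was not tested. mt-Atp8 (204 bases) and mt-Nd4l (297 bases) are also short and overlap a neighbour. mt-Atp6 had 42484 ± 14830.4 normalised reads per kb (SD, n = 5), mt-Co2 39673 ± 14898, mt-Co3 29152 ± 23184, mt-Nd4l 11589 ± 6722, mt-Nd3 4519 ± 2425 and mt-Atp8 1094 ± 581. Among the other 7 the values per kb ran from 94172 ± 26354 for mt-Nd6 to 500271 ± 109574 for mt-Co1.

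To compare each gene with the whole of the mitochondrial messenger RNA, every library was divided by its summed mitochondrial protein-coding value and all genes were fitted again. On that scale 3 of the 13 protein-coding genes were lower in cPTAA, where 0.374% of all genes were lower and 54.4% higher. mt-Nd4l was at -1.95 ± 0.50 (adjusted p = 0.00431), mt-Co3 at -1.61 ± 0.44 (0.00640) and mt-Atp6 at -1.10 ± 0.36 (0.0172), all by limma. Among the transfer RNA genes mt-Tl2 at -1.54 ± 0.59 (0.0330) and mt-Te at -0.92 ± 0.36 (0.0384) were lower, and neither ribosomal RNA gene passed. At an unadjusted p under 0.05 also 0 mitochondrial genes were higher relative to the total and 7 lower, and the 7 protein-coding genes outside the stretch had a median of -0.03.

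The relative falls of mt-Nd4l and mt-Co3 passed with any 1 library left out, and that of mt-Atp6 in all leave-outs but sham 10 (adjusted p = 0.0526). mt-Te did not pass without cPTAA 2, cPTAA 3, cPTAA 6 or any sham library but sham 1 (up to 0.124), nor mt-Tl2 without cPTAA 6 or any sham library but sham 8 (up to 0.0709). Without cPTAA 9, mt-Co2 (-1.17) and mt-Nd3 (-1.05) passed as well. With the geometric mean of the 13 genes as divisor, mt-Atp6, mt-Te and mt-Tl2 did not pass (adjusted p = 0.212, 0.442 and 0.159).

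**Figure D3:**
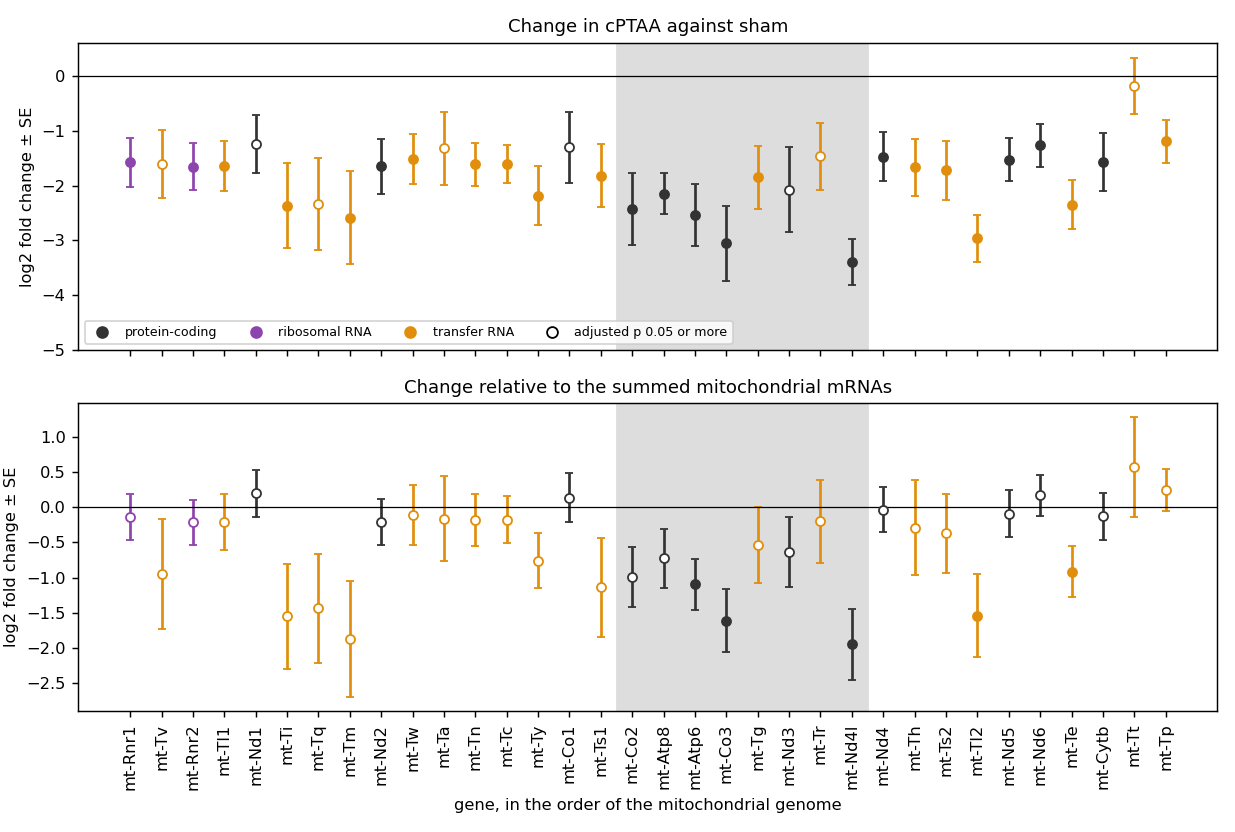
Log2 fold change of cPTAA against sham with its standard error for the 34 mitochondrial genes tested, in genome order, above for the normalised values and below relative to the summed mitochondrial mRNAs. Filled points had an adjusted p under 0.05, and the grey band marks mt-Co2 to mt-Nd4l, where the protein-coding genes lie lowest in both panels (median -2.48 and -1.05).

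The 7 nuclear copies also had log2 fold changes below 0, but not always of the size of their mitochondrial gene. Gm28437 was at -1.23 against -3.05 for mt-Co3, and Gm28439 at -2.91 against -1.47 for mt-Nd4. Of the 7 copies, 5 fell and 0 rose, and Gm28437 (-1.23, adjusted p = 0.109) and Gm29216 (-1.16, adjusted p = 0.209) did not pass. Gm28439, the copy of part of mt-Nd4, had between 281 and 1700.1 normalised reads in cPTAA and between 3395 and 4854 in sham, with no overlap, and fell by 2.91 ± 0.34 (adjusted p = 2.99e-05). Gm10222, the copy of mt-Nd4l, had between 51.3 and 440.2 in cPTAA and between 543 and 1133 in sham, also without overlap, and fell by 2.55 ± 0.43 (adjusted p = 0.000575). Gm28661 fell by 2.43, Gm10925 by 2.15 and Gm28438 by 2.85 (adjusted p = 0.00420, 0.00975 and 0.0199), the last not passing without sham 1 or sham 5 (0.0519 and 0.0578). On the recovered reads Gm10925 did not pass with edgeR or DESeq2 (adjusted p = 0.0732 and 0.0534), nor did Gm28438 (0.328 and 0.326). Which of these reads came from chromosome 1 and which from the mitochondrial genome was not tested.

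With the reads of each copy added to its mitochondrial gene, mt-Nd4l was lower by a log2 fold change of -3.15 ± 0.39 (adjusted p = 5.69e-05), and mt-Nd3 passed at -2.39 ± 0.76 (0.0327). mt-Co3 moved from -3.05 to -2.07 ± 0.57 (0.0164), and relative to the mitochondrial total it was then -0.62 ± 0.38 and no longer passed (0.165). mt-Atp6 and mt-Co2 were at -2.43 and -2.42. The summed value per kb in sham rose to 59159.5 for mt-Co2, 56509.9 for mt-Atp6, 43195 for mt-Co3 and 14473 for mt-Nd4l, below the 94172 of mt-Nd6. Any reads with several matches that were not counted are missing from the sums too. The sums therefore cannot test the part of the copies in these values.

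The share of a pair's reads that was counted to the mitochondrial gene differed between the groups for 2 of the 7 pairs. For mt-Co3 and Gm28437 it was 34.6 ± 15.3% in cPTAA (SD, n = 7) and 63.2 ± 9.71% in sham (SD, n = 5; 2-sided exact permutation p = 0.00884, 0.0309 adjusted over the 7 pairs). For mt-Nd4 and Gm28439 it was 99.3 ± 0.0486% against 98.1 ± 0.308% without overlap (exact permutation p = 0.00126, the smallest the 792 assignments allow, and 0.00884 adjusted). The other 5 pairs had adjusted exact permutation p between 0.115 and 0.942.

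**Figure D4:**
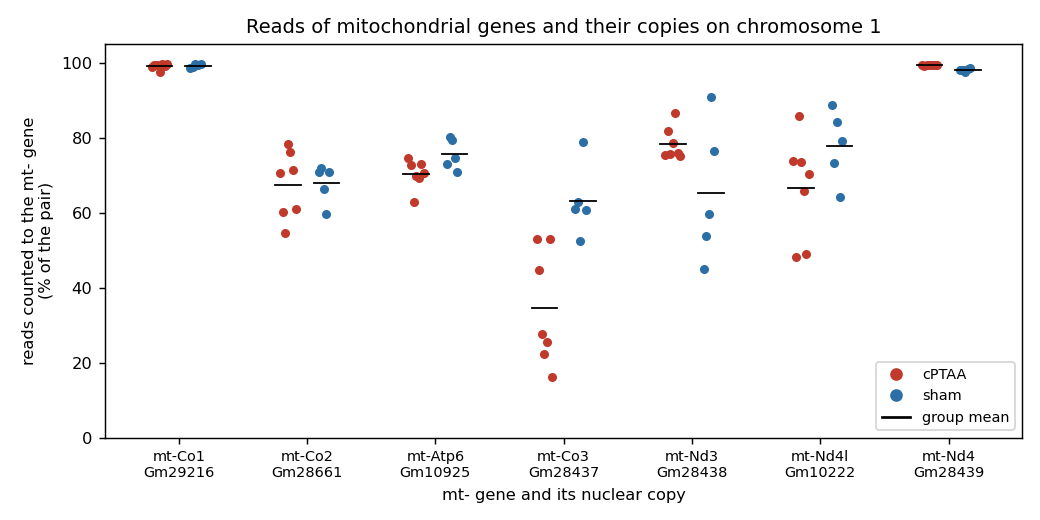
Percent of the reads of a mitochondrial gene and its chromosome 1 copy that were counted to the mitochondrial gene, 1 point per library with black lines at the group means. mt-Co3 lies between 16.1% and 53.0% in cPTAA and between 52.4% and 79.0% in sham.

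The log2 ratio of 4 pairs of neighbouring mitochondrial genes was compared between the groups by a 2-sided exact permutation test over the libraries. mt-Nd4l to mt-Nd4, which share 1 messenger RNA and overlap by 7 bases, was -8.04 ± 1.08 in cPTAA (SD, n = 7) and -6.13 ± 0.72 in sham (SD, n = 5; exact permutation p = 0.0101, adjusted p = 0.0404). The groups overlapped, and the difference of -1.91 missed the threshold in 10 of 12 leave-outs, all but cPTAA 2 and cPTAA 4 (exact permutation, adjusted p up to 0.109). Both genes have a copy on chromosome 1. This ratio therefore also depends on how reads with several matches were counted, which the sources used here do not say. mt-Atp8 to mt-Atp6 differed by 0.39, mt-Nd6 to mt-Nd5 by 0.26 and mt-Rnr1 to mt-Rnr2 by 0.08 (exact permutation, adjusted p = 0.535, 0.394 and 0.766). A p above the threshold does not show that these ratios were equal.

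The nuclear partners of the mitochondrial subunits were lower too. Of 81 nuclear genes for respiratory chain subunits, 59 fell and 0 rose, with a median log2 fold change of -1.15, where 11.1% of all genes were lower. All 4 genes of complex II, which holds no mitochondrially encoded subunit, fell, with log2 fold changes of -1.52 for Sdha, -1.07 for Sdhc and -1.38 for Sdhb. So did all 9 of complex III, with Uqcrc2 at -1.43, Uqcrc1 at -1.54 and Cyc1 at -1.59. In complex I 28 of 37 fell, among them Ndufs1 (-1.40), Ndufa10 (-1.55) and Ndufv1 (-1.54). In complex IV 13 of 15 fell, among them Cox8b (-3.06), an isoform of heart, skeletal muscle and brown fat, Cox6a1 (-1.60) and Cox8a (-1.24). In complex V 5 of 16 did, with Atp5b at -1.42, Atp5a1 at -1.19 and Atp5d at -1.17. Cox4i1, a core nuclear subunit of complex IV, ranged from 3860.0 to 20692 normalised reads in cPTAA with a median of 6610.2, against 21365, 14141, 11132, 19812 and 18305 in sham. As in most mitochondrial genes, cPTAA 9 was the only one to overlap. It fell by 1.13 ± 0.34 (adjusted p = 0.0256), and did not pass without cPTAA 2, sham 1, sham 10 or sham 11 (up to 0.0658). With edgeR neither Cox4i1 nor Sdhb passed (adjusted p = 0.0743 and 0.0661).

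The proteins that copy, transcribe and process the mitochondrial genome are encoded in the nucleus, and the counts of these lists stand against 11.1% of all genes lower and 12.9% higher. Of 11 genes of mitochondrial transcription, 3 fell: Tfb2m, a transcription initiation factor (-1.01), Mterf4, which guides ribosome assembly (-0.60), and Polrmt, the mitochondrial RNA polymerase (-0.76, adjusted p = 0.0182 and up to 0.0617 with sham 10 or sham 11 left out). Tfam, which packages mitochondrial DNA and starts transcription, had 409.8 to 741 normalised reads in cPTAA and 477 to 715 in sham and did not pass (-0.33 ± 0.16, adjusted p = 0.150, and 0.0223 without cPTAA 9). Of 16 genes of mitochondrial DNA replication and upkeep, 4 fell, with the helicase Twnk (-1.05), the topoisomerase Top1mt (-0.80) and the exonuclease Mgme1 (-0.83) at the lowest p. The genes Exog, Dna2 and Tk2 of that list rose. With 4 lower and 3 higher of so few genes, little can be read from this list.

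Of 23 genes of mitochondrial RNA processing and stability, 13 fell and 0 rose, with a median of -0.53. They included Lrpprc, which stabilises mitochondrial messenger RNAs (-1.03), Fastkd1 (-1.27) and Ptcd1 (-0.57). Of 27 genes that modify or charge mitochondrial transfer RNAs, 14 fell and 0 rose, with Iars2 (-0.75), Aars2 (-0.97) and Mto1 (-0.81) at the lowest p. Of 12 regulators of mitochondrial biogenesis, 7 fell and 0 rose. Ppara, a nuclear receptor for fatty acids, fell by 3.31, and the coactivators Ppargc1b and Ppargc1a fell by 2.85 and 2.49, all 3 with no overlap between the groups (adjusted p = 5.38e-06, 1.51e-05 and 6.55e-05).

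Markers of mitochondria-rich cells differed between these libraries. The marker counts here and below stand against 11.1% of all genes lower and 12.9% higher by limma. All 10 brown adipocyte markers fell, with Ppargc1a (-2.49), Adrb3 (-1.45) and Cidea (-2.75) at the lowest p, and 3 of them (Cox7a1, Cox8b and Ppargc1a) also stand in the lists above. Their summed level ran from 2487 to 46375 in cPTAA and from 36056 to 110279.9 in sham. Ucp1, the uncoupling protein that marks brown fat, ranged from 105 to 28872 in cPTAA with a median of 8070.1, against 53221, 33854, 16682, 63200.3 and 61323 in sham. It was lowest in cPTAA 12, which also had the lowest mitochondrial share, and highest in cPTAA 9. It fell by 3.002 ± 1.02 (adjusted p = 0.0452), and did not pass without cPTAA 2, 4 or 6 or without any of sham 1, 5, 10 and 11 (up to 0.0998), nor with edgeR or without the filter on low values (0.0545 and 0.0506). Of the 8 genes listed as white adipocyte markers 6 fell, among them Plin1 (-1.56), Adipor2 (-1.24) and Adipoq (-1.31). Their sums were 52734 to 113327 in cPTAA and 88858 to 214783 in sham. Whether these transcripts came from white or brown adipocytes was not tested.

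Of the 10 cardiomyocyte markers 0 passed by limma (1 lower and 1 higher at an unadjusted p under 0.05), at a median of -0.06. On the recovered reads 1 was higher with edgeR, where 13.3% of all genes were. With DESeq2, where 3259 of 21048 genes were higher and 2631 lower, 3 of the markers were higher and 1 lower. Their summed level was 141629.8 in cPTAA 9, 26224 in cPTAA 7 and 21354 in cPTAA 6, from 1647 to 2239 in the other 4 cPTAA libraries, and from 2045 to 8074 in sham. cPTAA 9, the library with a mitochondrial share inside the sham range, thus held the most heart muscle transcripts of all. Skeletal muscle markers (0 of 7 tested passed by limma, also unadjusted, 0 by edgeR and 2 by DESeq2, both higher) summed to 36466 in cPTAA 9, 88.8 to 5893 in the other cPTAA libraries and 166 to 1013 in sham. In cPTAA 9 nearly all of this came from Mb (27824), Acta1 (5749) and Ckm (2851), which heart muscle also expresses. Myh1, a myosin of fast skeletal fibres, had 5.88 normalised reads there against 84.6 in cPTAA 2, and Atp2a1 4.90 against 65.6. Myh2, Myh4 and Pvalb of that list were too low to be tested.

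Across all genes tested 11.1% were lower and 12.9% higher. Of the 10 smooth muscle markers 5 fell (among them Synpo2 -1.39, Mylk -1.11 and Myh11 -1.30). Their sums were 79159.7 to 299488 in cPTAA and 251782 to 335372 in sham. Of 8 endothelial markers 4 fell, with sums of 7179.8 to 13646 and 11046 to 17112. They included Kdr (-0.99), Tek (-0.74) and Pecam1 (-0.64), the last not passing without cPTAA 6, sham 1, sham 5 or sham 11 (up to 0.0832). Neither Tek nor Pecam1 passed with libraries scaled to their total reads. In the other direction, 5 of 8 fibroblast markers rose (sums of 82082 to 203021 against 37772 to 60200.7), with Lum by 2.11, Serpinf1 by 1.20 and Col1a1 by 1.76. All 10 macrophage markers rose (20173 to 42274 against 3841 to 10145), with Ms4a7 by 3.86, Adgre1 by 3.02 and Cd68 by 3.09. All 8 lymphocyte markers rose as well (343 to 2397 against 26.8 to 208), with Cd3g by 3.09, Cd79b by 3.503 and Nkg7 by 2.96. The part of these cell types in the mitochondrial values was not tested apart from the fits that follow, and in bulk tissue fewer cells of a type and less RNA per cell cannot be told apart.

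With a brown adipocyte score, the mean of log2(value + 1) over the 10 markers, added to the model as a covariate, 0 of 13 protein-coding, 0 of 2 ribosomal RNA and 0 of 19 transfer RNA genes passed by limma, against 1, 0 and 3 at an unadjusted p under 0.05, all lower. In that fit 1.17% of all genes were lower and 2.48% higher. The median log2 fold change was -0.07 for the protein-coding genes, 0.04 for the ribosomal RNA genes and -0.53 for the transfer RNA genes, and 12 of the 34 genes were above 0. mt-Nd4l had a log2 fold change of -2.64 ± 0.71 (adjusted p = 0.0548) and mt-Tl2 of -2.42 ± 0.73 (0.0770). Among the 10 markers, Cox7a1 and Cox8b are subunits of complex IV and Ppargc1a is a biogenesis regulator. The score is therefore in part a mitochondrial one. It ran from 7.01 to 10.4 in cPTAA and from 10.6 to 11.998 in sham, so it separated the groups without overlap. The score and the condition cannot be told apart in this design. With the cardiomyocyte score instead, 11 of 13, 2 of 2 and 15 of 19 fell, where 12.7% of all genes were lower and 14.2% higher.

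Among the 7 cPTAA libraries, mt-Co1 was set against 3 nuclear genes on the log2 scale, as the groups form separate clusters and 5 sham libraries are too few. With Cox4i1, the nuclear subunit of the same complex, Pearson's r was 0.924 and Spearman's rho 0.929 (2-sided exact permutation p = 0.0135 and 0.00675, adjusted over the 3 relations 0.0175 and 0.0202). Without cPTAA 9 and cPTAA 12, the libraries farthest from the median of Cox4i1, r was 0.614. With Ucp1 r was 0.619 and rho 0.750 (exact permutation p = 0.0123 and 0.0663, adjusted 0.0175 and 0.0994), and r was 0.401 without the same 2 libraries. With Myh6, the cardiac myosin heavy chain, r was 0.794 and rho 0.679 (exact permutation p = 0.0175 and 0.110, adjusted 0.0175 and 0.110), and r was 0.529 without cPTAA 9 and cPTAA 7. The 5 libraries that remain in each case are too few to test a relation. cPTAA 9 had the highest value of all 4 genes among the cPTAA libraries.

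**Figure D5:**
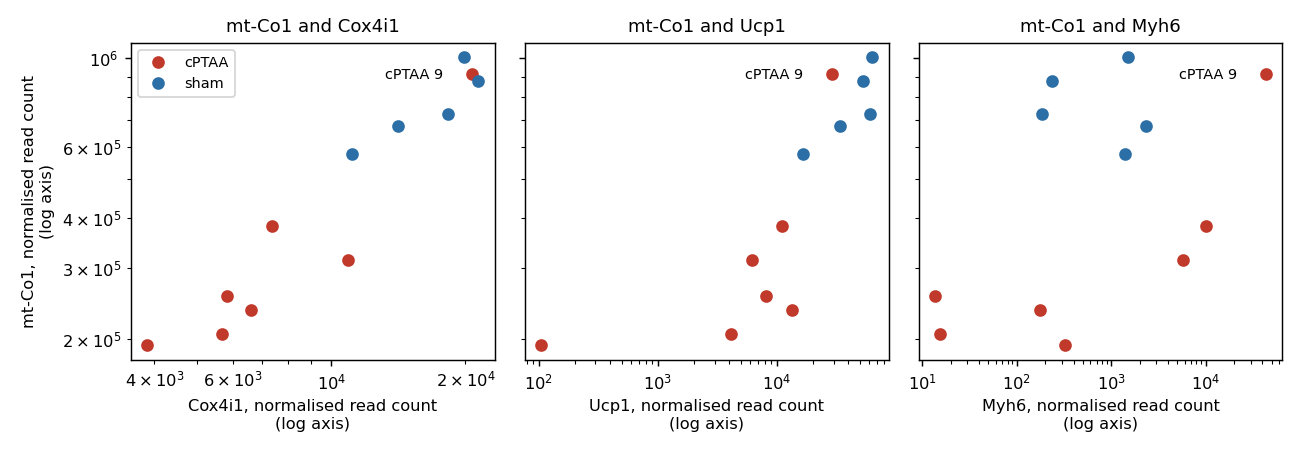
Normalised read count of mt-Co1 against Cox4i1, Ucp1 and Myh6 on log axes, 1 point per library, cPTAA in red and sham in blue. cPTAA 9 lies among the sham libraries for Cox4i1 (20692) and far to the right of every other library for Myh6 (43557).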

How the data were processed

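Per the labels' protocols, total RNA of the aortic tissue was enriched by oligo-dT capture and primed with random hexamers. The tools named in the submitters' processing notes are StringTie, HISAT2 2.0.5 and featureCounts 1.5.0-p3, and the build is GRCm39. For the strand setting, reads with several matches and the scaling the entry is: not given in the sources used here. Each deposited value is a signal for 1 gene: 100% were whole reads divided by 1 factor per library (within 0.02 reads), with 1 read worth 0.863 to 1.16 units. They are called normalised reads here. Recovered totals ranged from 14078885 to 17493428 reads.

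Groups and numbers came from the sample titles, which name no animals, so p-values measure only the spread between these samples. Groups were compared in R 4.3.3 by limma 3.58.1 with its trended prior variance, on log2(value + 1) and over 21415 genes with a value of at least 1 in at least 5 libraries, Benjamini-Hochberg adjusted over all of them, 2-sided, threshold 0.05. This scale understates the change of low genes. A second limma fit used values divided by the summed mitochondrial protein-coding value. On the recovered reads, edgeR 4.0.16 (quasi-likelihood, TMM) called 4969 genes against 5128 with limma, and DESeq2 1.42.0 called 5890. Single ratios and relations were tested by exact permutation (scipy 1.17.1). The scripts were tested on simulated data. Other alternatives were other scalings, filters, a pseudocount of 0.1, voom with sample weights, marker scores as covariates, and leaving out each library. Adding the nuclear copies, the test of the shares between a gene and its copy, and both scores in 1 model were chosen after seeing the data.

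The members and all gene lists were chosen with earlier results of these data known. The text names every mitochondrial gene, the 3 members of each other list with the smallest p among those past the threshold, and Cox4i1, Ucp1, Myh6, Tfam, Polrmt and Lrpprc. Exog, Dna2, Tk2, Cox7a1, Mb, Acta1, Ckm, Myh1, Atp2a1, Myh2, Myh4, Pvalb and the nuclear copies were named after their values were seen. Sequences, lengths and coordinates came from GENCODE M21 (GRCm38), another build than that of the deposited table, and were matched by symbol. Alignments used Biopython 1.88.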

Additional observations from a re-analysis of the deposited data

Results flagged for a closer look

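On the log2 scale, 66 sets of values (1 gene in 1 group) were searched for a library far from the rest of its group, and 5 held one. On the deposited scale 26 did. Chance gives about 1 in 20 for independent sets. These sets share the same libraries, so the counts cannot be judged against that share.

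In cPTAA the library was number 9 each time and lay above the others. It had 5681 normalised reads of mt-Nd3, where the next highest cPTAA library had 430. It had 248 of mt-Tn and 664 of mt-Tc. The share of reads from mitochondrial genes, 15.2% in cPTAA 9, also stood apart from the other 6 cPTAA libraries. In sham the library was number 8 each time and lay below the others, with 11.2 normalised reads of mt-Tm and 12.2 of mt-Ts2. Sham 8 also had the lowest mitochondrial share of its group (10.8%) and the lowest Ucp1 (16682).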

How the results depend on the processing

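No paired analysis was possible because the titles share no replicate numbers between the groups. With the brown adipocyte score, 781 genes passed (531 higher, 250 lower), and with it and the cardiomyocyte score together 996 (671 and 325), against 5128 (2754 and 2374) without. In both fits 0 protein-coding, 0 ribosomal RNA and 0 transfer RNA genes of the mitochondrial genome passed, against 10, 2 and 14; the cause was not tested, and score and condition cannot be told apart. With edgeR 1 ribosomal RNA and 9 transfer RNA genes passed. With 1 library left out, 6 to 13 protein-coding, 1 to 2 ribosomal RNA and 5 to 17 transfer RNA genes did. Relative to the mitochondrial messenger RNA, 80 genes were lower, but 21 with the geometric mean as divisor and 48 to 119 with 1 library left out. In that fit 2 to 5 mitochondrial protein-coding genes (3 with all libraries) and 0 to 6 transfer RNA genes (2 with all) were lower with 1 library left out, and 0 transfer RNA genes with the geometric mean. The log2 ratio of mt-Nd4l to mt-Nd4 differed by -2.18 to -1.67 in the leave-outs, and the log2 ratio of mt-Rnr1 to mt-Rnr2 by -0.0401 to 0.231. The relations of mt-Co1 fell to 0.614 (Cox4i1), 0.401 (Ucp1) and 0.529 (Myh6) without 2 libraries. Scaling to library totals gave 3360 higher and 1830 lower genes and moved the median of all genes from -0.05 to 0.06, while 10, 2 and 14 mitochondrial genes still fell.

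Log2 fold changes that turned positive with the brown adipocyte score, and with both scores where a second value is given, were mt-Rnr1 0.35 and 0.18, mt-Nd1 0.53 and 0.25, mt-Ti 0.68 and 0.12, mt-Tg 0.57 and 0.47, mt-Nd3 0.85 and 0.11, mt-Tr 0.58 and 0.63, mt-Tm 0.30, mt-Nd2 0.17, mt-Ta 0.18, mt-Co2 0.31, mt-Nd6 0.17, mt-Tp 0.31, Gm29216 0.61 and 0.36, Gm10925 0.18, Gm28437 0.21, Sdhc 0.20 and 0.0393, Sdhb 0.17, Cyc1 0.0375, Atp5a1 0.0304, Atp5d 0.0323, Mgme1 0.0698 and 0.0840, Mto1 0.11 and 0.11, Cox4i1 0.26 and 0.0678, Tfam 0.18 and 0.12, and Ucp1, itself in the score, 2.49 and 2.52. Myh6, which did not pass, turned to 2.62 with the brown adipocyte score, 2.95 with edgeR and 2.92 with DESeq2, and ranged from -1.27 to 0.66 in the leave-outs. Depth limits the transfer RNA genes with few reads, such as mt-Ts1, mt-Tv, mt-Tk and mt-Tt.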
